A study of Mus musculus with 57 samples.

Results

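The granule exocytosis machinery was followed here as 10 genes that carry, dock and fuse secretory granules, namely Rab3d, Rab26, Rab27a, Rab27b, Vamp2, Vamp8, Stx3, Stxbp2, Sytl1 and Sytl2. They were taken by name from a list of granule and fusion genes, and no measured value entered the rule. The list itself was chosen with earlier results of these data known. They are 10 of the 35275 genes in the table of developing glands. All 10 were listed in 4 of the 5 count tables, and 6 of them in the culture table of 5179 genes, which held no row for Rab26, Vamp2, Stx3 or Stxbp2. Every member passed the filter on low counts in every table that listed it.

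RNA was sequenced from 57 samples of mouse embryonic salivary tissue. Wild-type submandibular glands were taken fresh at embryonic day (E) 13, 14, 15, 16, 17 and 18, with 4 samples a stage. Wild-type end buds, epithelial lobes from which acini arise, were kept for 4 h untreated or with NRG1, the growth factor neuregulin 1 that binds ERBB3. End buds titled E13 had 3 samples in each arm, and those titled E14 had 2 untreated and 3 NRG1 samples, although their stage labels read E13 with added hours, and the label of NRG1 C among the latter gives 72 h in place of 4 h. The columns of treated end buds mark the treatment with the letter S, which was read as NRG1. Wild-type epithelium labelled E13 plus 72 h received TORIN1, which blocks the growth kinase mTOR, or DMSO as vehicle (4 samples each). The labels do not say whether NRG1 was in that medium. Glands at E16, untreated, were labelled wild type (WT) or Erbb3 knockout (KO), with 4 samples each, and their labels name neither the allele nor the deleted part nor the cells that lost it. Wild-type E13 epithelium was cultured with NRG1 for 2, 3 or 4 days (2 samples each), with no culture lacking NRG1 in that set. Strain, pooling of embryos and whether samples came from separate animals are unstated too, so p-values speak only of the spread among these samples, some of it perhaps technical.

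Salivary acinar cells store their products in granules and release them on demand by fusion with the apical membrane. RAB3 and RAB27 GTPases sit on the granule, and synaptotagmin-like proteins (SYTL) bind RAB27 and tie the granule to the membrane. Fusion itself joins a vesicle SNARE (VAMP) with target membrane SNAREs (syntaxins), guided by a Munc18 protein such as the product of Stxbp2. In acini of adult salivary glands and pancreas, VAMP8 and RAB27B are known for regulated enzyme release.

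Developing glands had 13033868 to 25935489 counts a sample. End buds had 16027377 to 26306020, DMSO and TORIN1 epithelium 16318997 to 19671988, and WT and KO glands 8913271 to 11890488. Levels are CPM, the counts scaled to a fixed total per library with TMM factors, given as mean ± SD. A gene was called at an adjusted p under 0.05 from edgeR's quasi-likelihood test over all genes of a table, and fold changes are log2 values ± SE. A few libraries stood apart. The SD of log2 ratios across genes was 0.893 to 0.975 between the sample E18 D and the other E18 samples, against 0.438 as the lowest among E18 pairs. It was 0.712 to 0.804 between TORIN1 A and the other TORIN1 samples, against 0.317 as the lowest. The WT glands of the KO table differed among themselves by 0.473 to 0.777, and the KO glands by 0.430 to 0.577. For some of the values that moved, results are given with and without these libraries. Between E13 and E18 the calls on Stxbp2, Sytl1 and Sytl2 held without E18 D, but their values without it are not given.

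The RAB GTPases lie on 3 chromosomes of GRCm38. Rab3d, a granule RAB of exocrine cells, spans chromosome 9 from 21907491 to 21918192 (ENSMUSG00000019066, minus strand). Rab26, a RAB of secretory granules known from rat parotid acini, spans chromosome 17 from 24527241 to 24534210 (minus strand). Rab27a, which is known for melanosome transport and for killing by cytotoxic T cells, spans chromosome 9 from 73044854 to 73097629. Its paralog Rab27b, on pancreatic and salivary granules, spans chromosome 18 from 69979131 to 70141605 (minus strand). Among the SNARE genes, Vamp2, the vesicle SNARE of synapses and of several gland cells, lies on chromosome 11 from 69088490 to 69092384. Vamp8, the main vesicle SNARE of exocrine granules, lies on chromosome 6 from 72385223 to 72390703, and Stx3, an apical syntaxin, on chromosome 19 from 11775118 to 11819403. Stxbp2, which encodes the epithelial Munc18-2, lies on chromosome 8 from 3630955 to 3643644. Sytl1 and Sytl2, which encode the RAB27 effectors SLP1 and SLP2-A, lie on chromosome 4 from 133253090 to 133263113 and on chromosome 7 from 90302252 to 90410719. All 10 are protein coding, and counts were taken per gene, so exons and untranslated regions are not separated.

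In whole glands 9 of the 10 genes were higher at E18 than at E13 and Sytl2 was lower. Rab3d, Rab26 and Sytl1 rose most, followed by Rab27b and Stxbp2. Vamp8 came next with all samples (2.40), but without E18 D its value of 1.63 was close to those of Stx3 (1.64) and Rab27a (1.62). Vamp2 had the smallest rise with and without that sample. Over all 16521 genes tested, 36.5% were called higher at E18 and 36.2% lower, and the median log2 fold change was 2.56 for the 10 genes and 0.01 for all genes. All 10 were called in the test over the 6 stages, as were 82.5% of all genes.

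Among the RAB genes, Rab3d had 18.3, 19.0, 17.1 and 16.8 CPM in the E13 samples A to D and 458, 468, 466 and 476 CPM at E18. The groups were far apart and each was tight, and the log2 fold change was 4.72 ± 0.10 (adjusted p = 9.71e-21). Stage means ran through 23.1 ± 1.48 CPM at E14, 77.3 ± 13.4 at E15, 279.7 ± 8.75 at E16 and 403 ± 7.87 at E17. The steep part thus lay between E14 and E16, with a log2 change of 1.74 ± 0.09 from E14 to E15 and 1.86 ± 0.09 from E15 to E16. From E17 to E18 the change was smaller, 0.21 ± 0.09, and was not called (adjusted p = 0.115), although the samples did not overlap and DESeq2 called it (adjusted p = 0.0448).

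Rab26 was near the detection limit early and rose late. It had 0.547, 0.362, 0.295 and 0.719 CPM at E13, from 5 to 14 counts a sample, and 13.9, 13.6, 14.8 and 20.9 CPM at E18. The log2 fold change was 4.98 ± 0.27 (adjusted p = 8.09e-14), and 4.82 without E18 D, the highest sample. Neither step up to E15 was called. Rab26 then rose by 1.56 ± 0.25 from E15 to E16, by 0.88 ± 0.22 from E16 to E17 and by 1.60 ± 0.21 from E17 to E18 (adjusted p = 1.57e-05). The call from E16 to E17 was lost without E16 B, E16 C or E17 D.

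Rab27b went from 4.11, 5.28, 4.02 and 4.52 CPM at E13 to 66.9, 73.2, 67.4 and 38.8 CPM at E18 (3.79 ± 0.18, adjusted p = 4.46e-15). Its profile followed that of Rab3d, with the steps of 1.16 ± 0.17 into E15 and 1.63 ± 0.16 into E16 as the only called ones. E18 D was the low sample here, and without it the E18 level was also called above that of E17 (0.45, adjusted p = 0.00421). Rab27a began higher, at 16.97, 15.9, 17.3 and 19.1 CPM, and ended at 52.3, 55.2, 52.5 and 42.0 CPM. Its rise of 1.54 ± 0.10 (adjusted p = 8.69e-13) came from E15 on, with 0.61 ± 0.09 into E16 and 0.44 ± 0.09 into E17, the latter not called with plain CPM (adjusted p = 0.0845). Per kb of exon Rab27a was the higher of the pair at both stages (4.46 ± 0.347 and 0.420 ± 0.0542 CPM per kb at E13, 13.02 ± 1.49 and 5.77 ± 1.45 at E18). In CPM Rab27b had the higher mean at E18 (61.6 ± 15.5 against 50.5 ± 5.79), though not in E18 D. The order per kb rests on exon lengths of 3879 bases for Rab27a and 10679 for Rab27b, summed over all annotated transcripts.

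**Figure D1:**
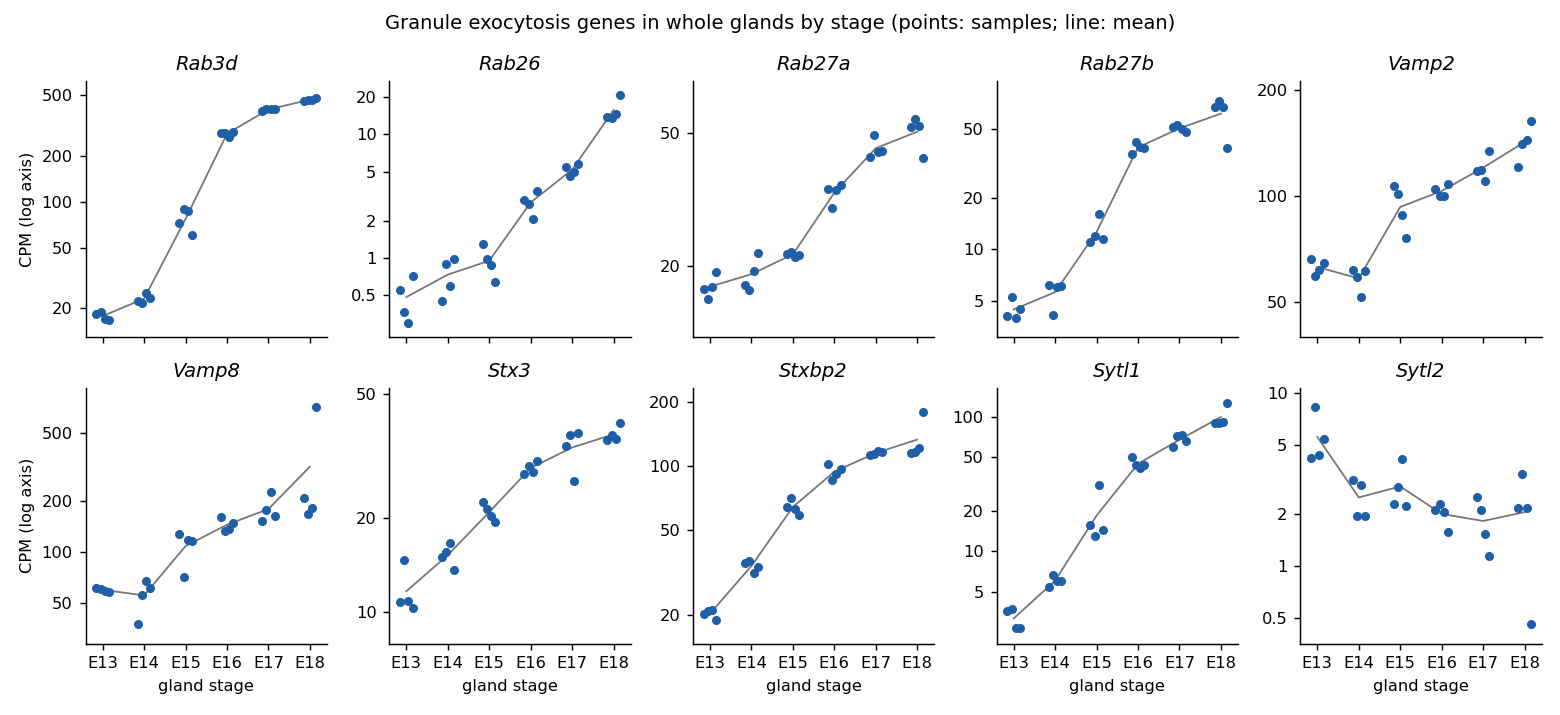
Level of each of the 10 genes in fresh glands from E13 to E18, in CPM on a log axis that differs between panels, with 4 samples a stage as points and their mean as a line. Rab3d climbs from 17.8 to 467 CPM, Rab26 still climbs between E17 and E18, Vamp8 has 1 sample at 711 CPM at E18, and Sytl2 falls.

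Of the fusion genes, Stxbp2 and Stx3 were called higher at each step up to E16. Stxbp2 went from 20.3 ± 0.927 CPM at E13 to 34.0 ± 1.90 at E14 and 64.3 ± 5.10 at E15, and reached 133 ± 31.2 at E18 (2.71 ± 0.12, adjusted p = 6.97e-16). The E18 samples had 115, 116, 122 and 179.8 CPM, with E18 D the highest. Stx3 rose in small steps of 0.39 ± 0.12, 0.46 ± 0.11 and 0.47 ± 0.11 up to E16 and from 11.6 ± 2.05 to 37.0 ± 2.19 CPM in all (1.67 ± 0.12, adjusted p = 5.57e-12). The E13 and E14 samples of Stx3 overlapped, and that call was lost when any of E13 A, C or D or E14 C was left out.

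The vesicle SNARE genes were already abundant at E13. Vamp2 had 66.1, 59.2, 61.6 and 64.7 CPM then and 121, 141, 144 and 163 CPM at E18 (1.18 ± 0.10, adjusted p = 2.74e-10). The step from E14 to E15 (0.67 ± 0.10) was its only called one. Vamp8 had 61.0, 60.7, 59.0 and 58.4 CPM at E13, and 208, 168, 180.0 and 711 CPM at E18. The last value, from E18 D, was far above the others. The log2 fold change of Vamp8 was 2.40 ± 0.35 (adjusted p = 2.61e-06) with E18 D and 1.63 without it (adjusted p = 9.10e-08). Its step from E14 to E15 (0.96 ± 0.33, adjusted p = 0.0216) was called, and was lost without E14 A or E15 A.

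The SYTL genes parted. Sytl1 had 3.61, 3.69, 2.66 and 2.67 CPM at E13 and 90.8, 90.3, 91.8 and 127 CPM at E18 (4.99 ± 0.23, adjusted p = 4.76e-15). It was called higher at every step but that from E16 to E17, where the change of 0.59 ± 0.18 missed the threshold (adjusted p = 0.0602) though the samples did not overlap. DESeq2 (adjusted p = 0.0301) and the fit of these stages alone (adjusted p = 0.000585) called that step. The call on its last step, 0.56 ± 0.18 with an adjusted p of 0.0428, was lost in 10 of 14 alternative fits, without E18 D among them. Sytl2 was low throughout, with 4.22, 8.25, 4.37 and 5.39 CPM at E13 and 2.16, 3.40, 2.15 and 0.459 CPM at E18. Its log2 change was -1.40 ± 0.35 (adjusted p = 0.00115), nearly all of it from E13 to E14 (-1.16 ± 0.35, adjusted p = 0.0192), a call lost without E13 B, E14 B or E14 D.

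Day by day, 4 of the 10 genes were higher and Sytl2 was lower from E13 to E14, when 11.8% of all genes were higher and 7.63% lower. From E14 to E15, 7 were higher and none lower, against 24.7% and 25% of all genes. From E15 to E16 it was again 7 higher and none lower, against 12.2% and 11.3%. From E16 to E17 only Rab3d, Rab26 and Rab27a were called, all higher, against 3.39% and 2.11%. A fit of these stages alone called 6, and its share of all genes is not given here. From E17 to E18 only Rab26 and Sytl1 were called, both higher, against 5.91% and 7.09%. The median of the 10 genes was 0.36, 0.80, 0.58, 0.34 and 0.23 at these steps, and that of all genes stayed between -0.02 and 0.06.

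**Figure D2:**
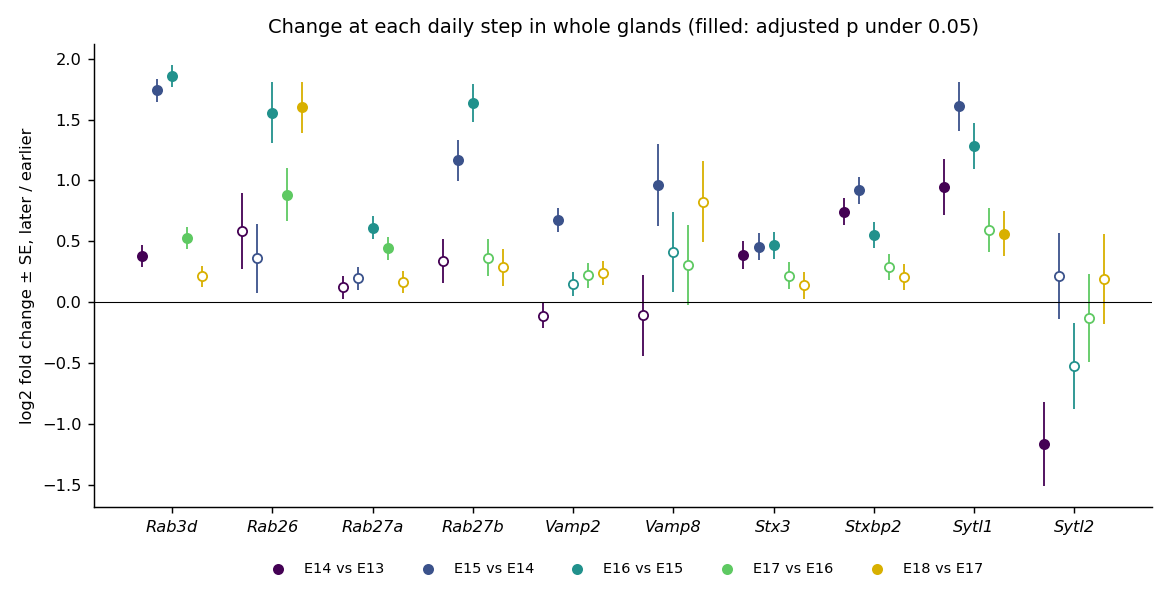
Log2 fold change ± SE between consecutive stages for each gene, later stage over earlier, with filled points for an adjusted p under 0.05 and open points otherwise (n = 4 samples a stage). Most of the rise of Rab3d, Rab27b and Sytl1 lies in the steps into E15 and E16, while Rab26 has its largest step, 1.60, from E17 to E18.

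Markers of epithelium rose over the same days. Epcam, an adhesion gene of epithelial cells, rose by 1.78 ± 0.12 and Cdh1, the E-cadherin gene, by 1.37 ± 0.10. The summed level of 8 epithelial markers was 766 to 861 CPM at E13. At E18 it was 3504 to 3661 CPM in samples A to C and 5858 CPM in E18 D. In bulk tissue, fewer or more cells of a type and less or more RNA per cell cannot be told apart. Scaling each library to those 8 markers gives the change relative to epithelial transcripts, and it moves the median of all genes from 0.01 to -2.10. On that scale Rab26 (2.87), Sytl1 (2.86), Rab3d (2.61), Rab27b (1.72) and Stxbp2 (0.57) were still called higher. Rab27a (-0.54), Stx3 (-0.44) and Vamp2 (-0.95) were called lower, Vamp8 was not called (0.16, adjusted p = 0.571), and Sytl2 was lower still (-3.45). Rab27a, Stx3 and Vamp2 nonetheless lay above the median of all genes on that scale, and Sytl2 lay below it. The shares of all genes called on that scale are not given here. This scaling was chosen after the data had been seen.

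**Figure D3:**
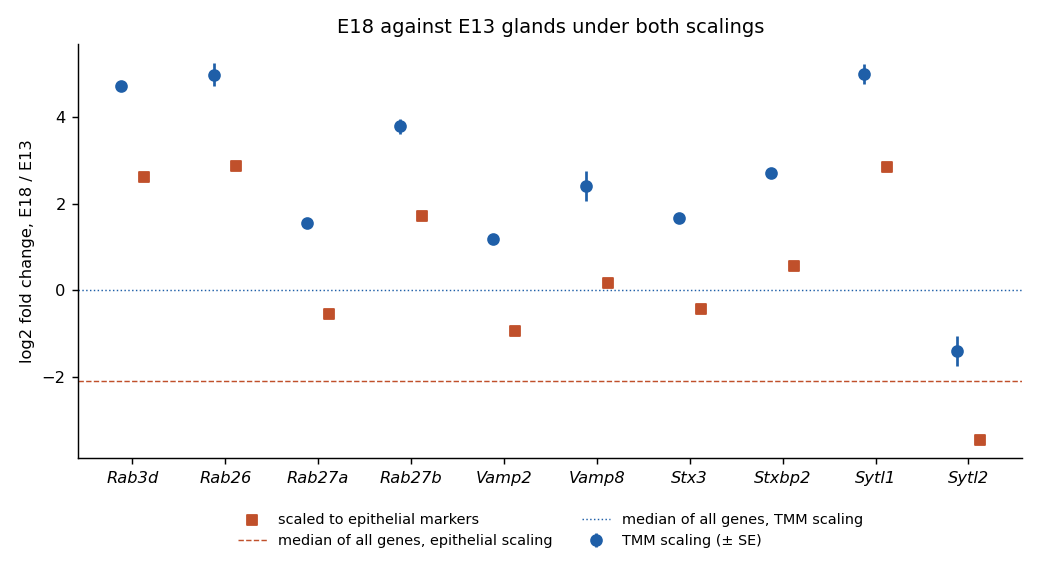
Log2 fold change of each gene between E13 and E18 with TMM scaling (circles, ± SE) and scaled to 8 epithelial markers (squares), with the median of all genes under each scaling as a line. With epithelial scaling Rab3d, Rab26, Rab27b, Sytl1 and Stxbp2 keep a positive value, Rab27a, Stx3 and Vamp2 turn negative, and Vamp8 lies at 0.16.

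Markers of other cells moved too. The sum of 10 neuronal markers was 408 to 500.1 CPM at E13 and at E18 122 to 137 CPM in samples A to C and 269.7 CPM in E18 D. Of 6 mesenchymal markers 5 were called lower at E18 (median log2 change -1.46). Their sum was 6187 to 6483 CPM at E13, 5571 to 6605 CPM in E18 A to C and 2791 CPM in E18 D. Of 5 tested erythroid markers 4 were called higher, with sums of 3037 to 4584 CPM in E18 A to C and 13774 CPM in E18 D. End buds titled E13 without NRG1 had only 12.4 to 17.02 CPM of the 10 neuronal markers and none of Chrna3, with Vamp2 at 78.6 to 103 CPM in the same samples. The sum of 5 mast cell markers rose from between 3.78 and 7.08 CPM to between 375 and 448 CPM in E18 A to C and 685 CPM in E18 D. In DMSO and TORIN1 epithelium 4 of these 5 (Cma1, Cpa3, Mcpt4 and Tpsb2) were at 0 in all samples, where Rab3d, Rab27b, Vamp8 and Sytl1 had means of 278, 111, 156 and 56.1 CPM with DMSO. The sum of 6 macrophage markers went from between 44.9 and 55.2 CPM to between 220.1 and 223 CPM in E18 A to C and 345 CPM in E18 D. The part of these other cells in the gland values was not tested.

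Compared per kb of exon, Vamp8 and Vamp2 led at E13 with 25.9 ± 0.545 and 16.5 ± 0.818 CPM per kb. Stxbp2 (4.88 ± 0.223), Rab27a (4.46 ± 0.347) and Rab3d (4.24 ± 0.251) came next and lay within about their SDs of the neighbour in that order, and Stx3, Sytl1, Rab27b, Sytl2 and Rab26 were lower. At E18 Rab3d had moved to 111 ± 1.79 CPM per kb, next to Vamp8 at 137 ± 114, whose order against Rab3d rests on E18 D. Sytl1 (39.7 ± 7.23), Vamp2 (37.4 ± 4.50) and Stxbp2 (32.0 ± 7.51) formed a second tier within their SDs. Rab27a followed with 13.02 ± 1.49, then Stx3, Rab27b and Rab26 at 6.48 ± 0.383, 5.77 ± 1.45 and 5.53 ± 1.20, which were not apart. Sytl2 was last with 0.146 ± 0.0867. Its exon length of 13941 bases, summed over all annotated transcripts, lowers that value if short transcripts are the ones present.

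Genes with the most similar course were sought over the 24 gland samples by Pearson's r of log2 CPM. These points share stages and libraries, so r is a description. The closest to Rab3d were Lpo, the lactoperoxidase gene (r = 0.998), and Hid1, a gene of secretory granule formation (r = 0.996). Rab27b was closest to Nipal2 (0.993), Sytl1 to Stap2 (0.993), Stxbp2 to Tmem63a (0.995), and Rab26 to Tcn2, the transcobalamin 2 gene (0.981). Vamp8 was closest to Atp5j2, a subunit gene of mitochondrial ATP synthase (0.991), and to the ribosomal protein gene Rpl32 (0.990). Rab27a was closest to Nucb2 (0.983), Vamp2 to Ppox (0.972), Stx3 to Ptpn18 (0.978) and Sytl2 to Npnt (0.878). Among the members, Rab3d and Rab27b had r = 0.990 with each other, while Sytl2 was negatively related to each of the other 9.

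Bhlha15 encodes MIST1, a helix-loop-helix factor of exocrine cells that binds E-boxes and is known in mouse to activate Rab3d and Rab26. It rose from 0.973 ± 0.293 CPM at E13 to 497 ± 87.7 at E18, with 52.7 ± 11.6 at E15 and 315 ± 13.6 at E16. Between E17 and E18 it did not change by the test (0.01 ± 0.15), while Rab26 rose. The E-box CANNTG, which reads as the same motif on both strands, and its forms CATATG and CAGCTG were searched in the 250 bases before each start in RefSeq's promoters on GRCm38.p6. Of 32851 promoters 66.2% held CANNTG, 3.46% CATATG and 13% CAGCTG. A promoter was used for 6 of the 10 genes, and Rab26, Rab27b, Vamp2 and Sytl2 were not analysed here. No CANNTG was in these letters of Rab3d or Vamp8, 1 was in Stx3, 4 were in Stxbp2, and both matches in Sytl1 were CAGCTG. These windows end at RefSeq starts, which can differ from the gene spans given above. The Stxbp2 window (chr8:3630859-3631108) crosses the start of its span at 3630955, and all 4 matches lie inside that span. The windows of Rab3d, Vamp8 and Sytl1 also reach into their spans. The Sytl1 match 10 bases before the RefSeq start lies inside its span. Of the starts of Rab27a, 1 had a single match and the other had 6, among them CATATG and CAGCTG at 26 and 15 bases before the start. That other start lies well inside the gene span given above. Shown with E-boxes in capitals, 5′ to 3′, are Rab3d as a gene with a large rise and no match (chr9:21918184-21918433, minus strand), Sytl1 as a gene that rose as far with CAGCTG (chr4:133263088-133263337, minus strand), and the second start of Rab27a for its CATATG (chr9:73063898-73064147, plus strand).
Rab3d: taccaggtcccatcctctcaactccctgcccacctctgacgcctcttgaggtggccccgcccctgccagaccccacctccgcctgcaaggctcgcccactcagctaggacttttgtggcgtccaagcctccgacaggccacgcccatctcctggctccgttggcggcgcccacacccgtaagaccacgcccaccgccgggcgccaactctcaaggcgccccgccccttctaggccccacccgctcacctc
Sytl1: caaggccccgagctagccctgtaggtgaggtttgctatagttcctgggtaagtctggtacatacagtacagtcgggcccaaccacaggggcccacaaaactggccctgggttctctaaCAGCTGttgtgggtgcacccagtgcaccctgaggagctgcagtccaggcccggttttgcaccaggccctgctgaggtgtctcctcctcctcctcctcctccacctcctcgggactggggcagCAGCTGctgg
Rab27a: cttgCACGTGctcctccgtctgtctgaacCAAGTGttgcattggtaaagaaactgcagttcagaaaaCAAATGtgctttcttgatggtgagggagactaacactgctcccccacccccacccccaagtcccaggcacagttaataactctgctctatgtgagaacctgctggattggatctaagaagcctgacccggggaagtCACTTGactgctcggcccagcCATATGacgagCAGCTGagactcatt

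Of the wider machinery, vesicle RAB and effector genes split between E13 and E18. Of 20 other RAB genes and regulators 9 rose and 5 fell, with a median of 0.27, led by the recycling RABs Rab25 (2.92 ± 0.16) and Rab4a (2.29 ± 0.12), and by Rab3b (-0.97 ± 0.29) and the exchange factor Rab3il1 (-0.83 ± 0.08) among those that fell. Of 15 tested effectors and vesicle motors 9 rose and 5 fell. Mlph, the melanophilin gene that links RAB27A to myosin, rose by 5.43 ± 0.25 and Sytl3 by 4.96 ± 0.25, while Sytl5 (-3.28 ± 0.53) and the active zone gene Rims2 (-2.54 ± 0.46) fell. Of 32 other SNARE and Munc18 genes 12 rose and 9 fell (median 0.07), with Vamp1 at 2.98 ± 0.24 and Stxbp6 at 2.94 ± 0.13, and with the neuronal genes Stx1a (-1.31 ± 0.12) and Snap25 (-0.92 ± 0.24) among those that fell. Of 24 calcium sensors and priming genes 9 rose, led by Cadps2 (2.60 ± 0.13) and Syt8 (2.21 ± 0.58), and 10 fell, led by Doc2b (-2.81 ± 0.17) and Syt17 (-2.73 ± 0.36). Of 9 exocyst genes, whose products tether vesicles, only Exoc8 rose (0.70 ± 0.10) and 6 fell, Exoc6b by 1.25 and Exoc2 by 0.93 on the log2 scale. These lists were chosen with results of these data known, and their counts stand beside 36.5% and 36.2% of all genes.

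At the daily steps some of these genes moved beside the members. Myo5c, a vesicle motor, rose by 1.76 ± 0.14 from E13 to E14. Mlph rose by 1.81 ± 0.21 into E15 and 1.72 ± 0.21 into E16. Syt7, a calcium sensor of slow exocytosis, rose by 1.24 ± 0.15 and Stxbp6 by 1.21 ± 0.11 from E15 to E16. Myrip, a RAB27 effector, rose by 1.65 ± 0.25 into E16, 1.17 ± 0.22 into E17 and 1.17 ± 0.21 into E18, the last in the step in which Rab26 rose.

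The next question was how the genes respond to NRG1 within 4 h in end buds. In end buds titled E13 Sytl1, Stxbp2 and Vamp8 fell and Rab27a rose. Sytl1 had 51.8, 64.6 and 48.5 CPM without and 31.6, 30.5 and 24.5 CPM with NRG1 (-0.93 ± 0.28, adjusted p = 0.0278). The groups did not overlap, but the call was lost in 7 of 12 alternative fits, among them those without control A or B or without any 1 NRG1 sample. Stxbp2 had 130.5, 129 and 131 CPM without and 101, 102 and 98.9 CPM with NRG1 (-0.37 ± 0.10, adjusted p = 0.00697), and Vamp8 fell from 135 ± 11.5 to 105 ± 8.37 CPM (-0.36 ± 0.08, adjusted p = 0.00234). Rab27a had 28.0, 31.1 and 24.1 CPM without and 39.2, 39.5 and 35.5 CPM with NRG1, again without overlap (0.46 ± 0.11, adjusted p = 0.00291). Rab3d had 61.4 ± 1.81 and 58.5 ± 4.28 CPM (-0.07 ± 0.09, adjusted p = 0.579), Rab27b 9.36 ± 0.614 and 7.16 ± 0.445 (adjusted p = 0.0554) and Vamp2 87.6 ± 13.04 and 68.8 ± 5.02 (adjusted p = 0.0796). Rab26, at 1.55 ± 0.462 and 1.25 ± 0.579 CPM, Stx3 and Sytl2 did not pass either. In all 1 of the 10 genes was called higher and 3 lower, against 23.1% and 19.3% of 16180 genes, and their median was -0.35 against -0.02.

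In end buds titled E14 Sytl1, Stxbp2 and Rab3d fell and none rose, against 16% of all genes lower and 20.2% higher. Sytl1 had 26.6 and 61.8 CPM in the controls and 17.4, 15.4 and 13.01 CPM with NRG1 (-1.54 ± 0.32, adjusted p = 0.00559). The controls were far apart, and the log2 change was -0.80 without control C and -2.02 without control B. Stxbp2 had 94.8 and 137 CPM without and 77.5, 80.3 and 80.5 CPM with NRG1 (-0.55 ± 0.11, adjusted p = 0.00141), and -0.25 and -0.79 without either control. Rab3d had 49.0 and 57.4 CPM without and 48.9, 38.3 and 40.7 CPM with NRG1 (-0.32 ± 0.10, adjusted p = 0.0253), a call lost without control C or NRG1 B or C. The markers of mesenchyme also set those controls apart, with sums of 2749 CPM in control B and 771 CPM in control C, and their part was not tested. The effect of NRG1 did not pass a test of difference between the titles for any of the 10 genes (0.735% of all genes called higher and 1.53% lower). Vamp8 came nearest, with -0.36 at E13 and 0.08 at E14 (difference 0.44 ± 0.12, adjusted p = 0.0746), and 2 of the 10 had an unadjusted p under 0.05. DESeq2 called 1, and its share of all genes is not given here. The result also depended on E14 control B. Without it a lone control remains, assumed to vary like the other groups, so calls from that fit are not read here.

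Other genes of the machinery moved further under NRG1. At E13 Sytl3 rose by 2.87 ± 0.43 and Mlph by 1.34 ± 0.23, while Exph5, a RAB27 effector, fell by 1.75 (SE 0.16) and Myrip by 1.14 (SE 0.25). At E14 Exph5 (-1.78 ± 0.17) and Myrip (-0.98 ± 0.28) fell too, and Mlph was the effector whose response differed between the titles (-1.48 ± 0.32, adjusted p = 0.0361). Of the exocyst genes 4 of 9 rose at each title, against 23.1% and 20.2% of all genes, and none fell at E13. Exoc4 fell at E14 (-0.40 ± 0.09), where 16% of all genes fell. The rise was led by Exoc5 (0.84 ± 0.08 and 0.83 ± 0.09) and Exoc6 (0.78 ± 0.14 and 0.69 ± 0.16). Bhlha15 fell from 6.20 ± 1.09 to 1.92 ± 0.299 CPM at E13 (-1.69 ± 0.20) and from 13.4 ± 1.27 to 7.75 ± 1.04 CPM at E14 (-0.79 ± 0.19).

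**Figure D4:**
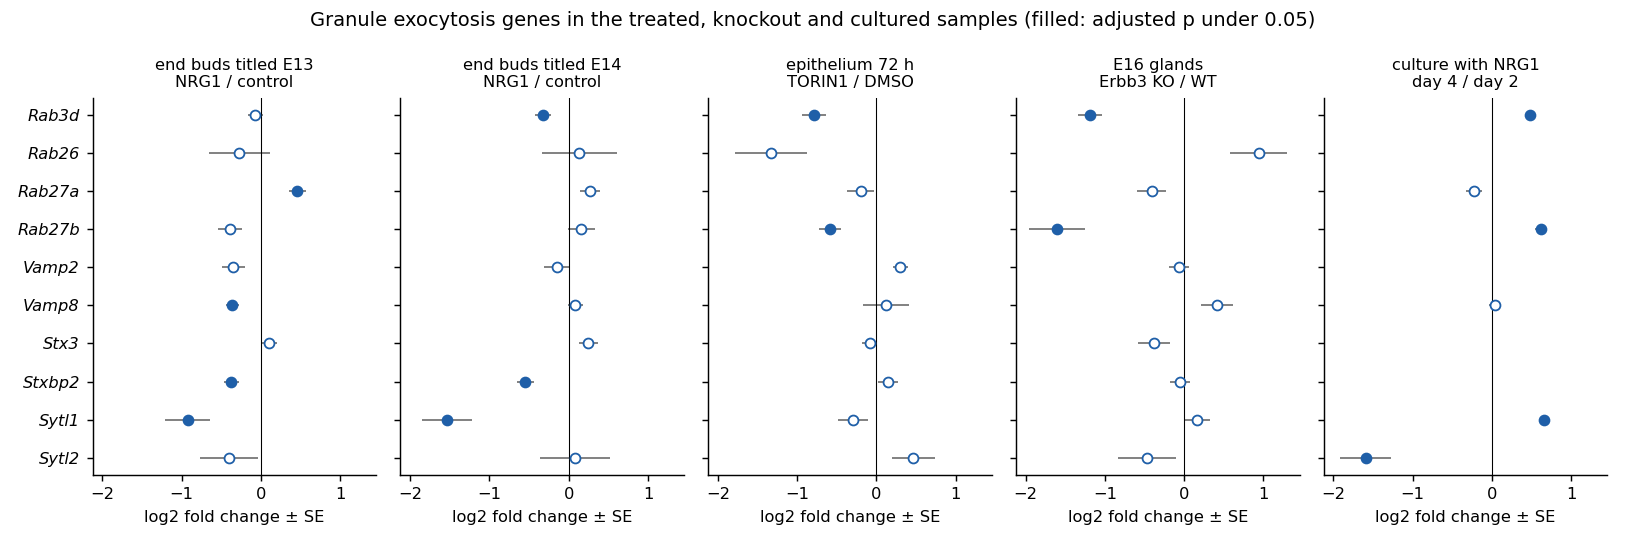
Log2 fold change ± SE of each gene under NRG1 for 4 h, under TORIN1, in Erbb3 KO glands and between days 2 and 4 of culture, with filled points for an adjusted p under 0.05. Rab3d and Rab27b fall with TORIN1 and in KO glands and rise in culture, and Sytl1 falls in both sets of end buds. Rab26, Vamp2, Stx3 and Stxbp2 have no row in the culture table.

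TORIN1 was compared with DMSO to ask what mTOR activity does in epithelium at 72 h. Rab3d and Rab27b fell and none of the 10 genes rose. Rab3d had 299.6, 292, 279 and 242 CPM with DMSO and 201, 177, 121 and 145 CPM with TORIN1 (-0.79 ± 0.16, adjusted p = 0.0238). Rab27b had 113, 117, 116 and 99.3 CPM with DMSO and 62.4, 95.8, 64.2 and 75.2 CPM with TORIN1 (-0.58 ± 0.14, adjusted p = 0.0441). Neither pair of groups overlapped. Both calls rest on few samples, since no member was called without DMSO A, B or C or TORIN1 C or D, and Rab27b was not called without DMSO D or with plain CPM. Of 14985 genes 2.46% were called higher and 3.36% lower.

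Rab26 had 3.75, 3.60, 3.12 and 1.66 CPM with DMSO and 2.10, 1.59, 0.498 and 0.616 CPM with TORIN1, from 9 to 67 counts, and the groups overlapped (-1.33 ± 0.46, adjusted p = 0.122). It was called by DESeq2 (-1.34, adjusted p = 0.0418) and with the replicate letter as a block (-1.43, adjusted p = 0.0407), the TORIN1 sample being the lower of each same-letter pair. Vamp2 had 81.7 ± 1.60 CPM in DMSO and 101 ± 12.2 CPM in TORIN1 samples (0.30 ± 0.10, adjusted p = 0.104), with every TORIN1 sample above every DMSO sample. The sample TORIN1 A had 298.7 CPM of Vamp8 against 116 to 144 in the other TORIN1 samples, 189 against 131 to 137 of Stxbp2, and 67.2 against 35.1 to 44.7 of Sytl1. Without it 5 of the 10 genes were called, namely Rab3d (-0.92), Rab26 (-1.75), Rab27b (-0.51) and Sytl1 (-0.55) lower and Vamp2 (0.22) higher. The shares of all genes given above are for all samples, and the share without TORIN1 A is not given here. That sample also had 13.4 CPM of neuronal markers against 1.18 to 2.56 in the other TORIN1 samples, and their part was not tested. Rab27a, Stx3, Stxbp2, Vamp8 and Sytl2 did not pass with all samples. Bhlha15 fell from 281 ± 32.1 to 171 ± 40.8 CPM (-0.72 ± 0.17, adjusted p = 0.0445), the motor gene Myo5c fell by 0.92 (SE 0.20), and Cplx2 (1.07 ± 0.12) and Syt7 (1.01 ± 0.14) rose.

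The last perturbation was the loss of Erbb3 at E16. Erbb3 itself had 89.7, 69.6, 124 and 118 CPM in the glands labelled WT and 35.1, 32.0, 73.6 and 68.6 CPM in those labelled KO. The difference of -0.94 ± 0.29 was not called (adjusted p = 0.0619), and WT 2 lay below KO 3. Counts per gene cannot show whether the remaining transcripts lack the deleted part. Among the 10 genes, Rab3d and Rab27b fell and none rose, against 4.2% of 14991 genes lower and 2.83% higher.

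Rab3d had 152, 112, 123 and 132 CPM in WT glands and 50.5, 49.6, 63.8 and 64.0 CPM in KO glands (-1.19 ± 0.15, adjusted p = 0.0101), with no overlap. Rab27b had 21.7, 14.7, 17.3 and 12.03 CPM in WT and 3.31, 2.32, 7.56 and 8.23 CPM in KO glands (-1.61 ± 0.35, adjusted p = 0.0357), also with no overlap. KO 1 and KO 2, the pair with the lower Erbb3, had the lower Rab27b. In WT glands the lowest Rab27b was in WT 4 and the lowest Erbb3 in WT 2. KO 1 and KO 2 also had higher mesenchymal marker sums (10315 and 10026 CPM) than KO 3 and KO 4 (6403 and 7885). Their epithelial marker sums were lower (2198 and 1679 CPM against 2576 and 2260). The part of these cells in Rab27b was not tested in these samples. Without KO 1 or without KO 2 neither gene was called, and the calls over all genes fell from 1054 to 5 and to 3. Without WT 1, WT 3 or WT 4 the call on Rab27b was lost, while that on Rab3d was kept. Bhlha15 was lower as well, with 116 ± 32.4 and 24.1 ± 13.4 CPM (-2.26 ± 0.39, adjusted p = 0.0301).

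Rab26 went the other way without passing the test. It had 1.61, 1.87, 2.17 and 3.31 CPM in WT and 5.85, 5.22, 4.19 and 2.15 CPM in KO glands (0.94 ± 0.36, adjusted p = 0.0973), with KO 4 within the WT range. Rab27a had 26.8 ± 7.15 and 20.1 ± 1.83 CPM (adjusted p = 0.153), and WT 1 was its highest sample. Vamp8 had 123 ± 39.8 and 165 ± 19.7 CPM (adjusted p = 0.173), Stx3 22.9 ± 6.90 and 17.5 ± 2.31, and Sytl2 3.95 ± 1.96 and 2.86 ± 0.756. Stxbp2 (-0.05 ± 0.13), Vamp2 (-0.06 ± 0.12) and Sytl1 (0.17 ± 0.16) had the smallest differences. Scaled to epithelial markers, which moves the median of all genes from -0.04 to 0.34, Rab3d (-0.82) and Rab27b (-1.31) were still lower, and Rab26 (1.32, adjusted p = 0.0414) and Vamp8 (0.78, adjusted p = 0.0409) were called higher. The shares of all genes called on that scale are not given here. Some marker sums differed between the labels, but of those given next only that of macrophages did not overlap. Epithelial markers had 2343 to 3616 CPM in WT and 1679 to 2576 CPM in KO glands, neuronal markers 248 to 337 and 316 to 456 CPM, Schwann cell markers 405 to 673 and 665 to 769 CPM, and macrophage markers 131 to 161 and 163 to 306 CPM. Of these lists, 1 of 8 epithelial markers was called lower, and 1 of 10 neuronal and 3 of 6 macrophage markers were called higher. None of the 5 Schwann cell markers, Erbb3 among them, was called, and their median log2 change was -0.22. The part of these cells in these results was not tested beyond the scaling to epithelial markers.

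**Figure D5:**
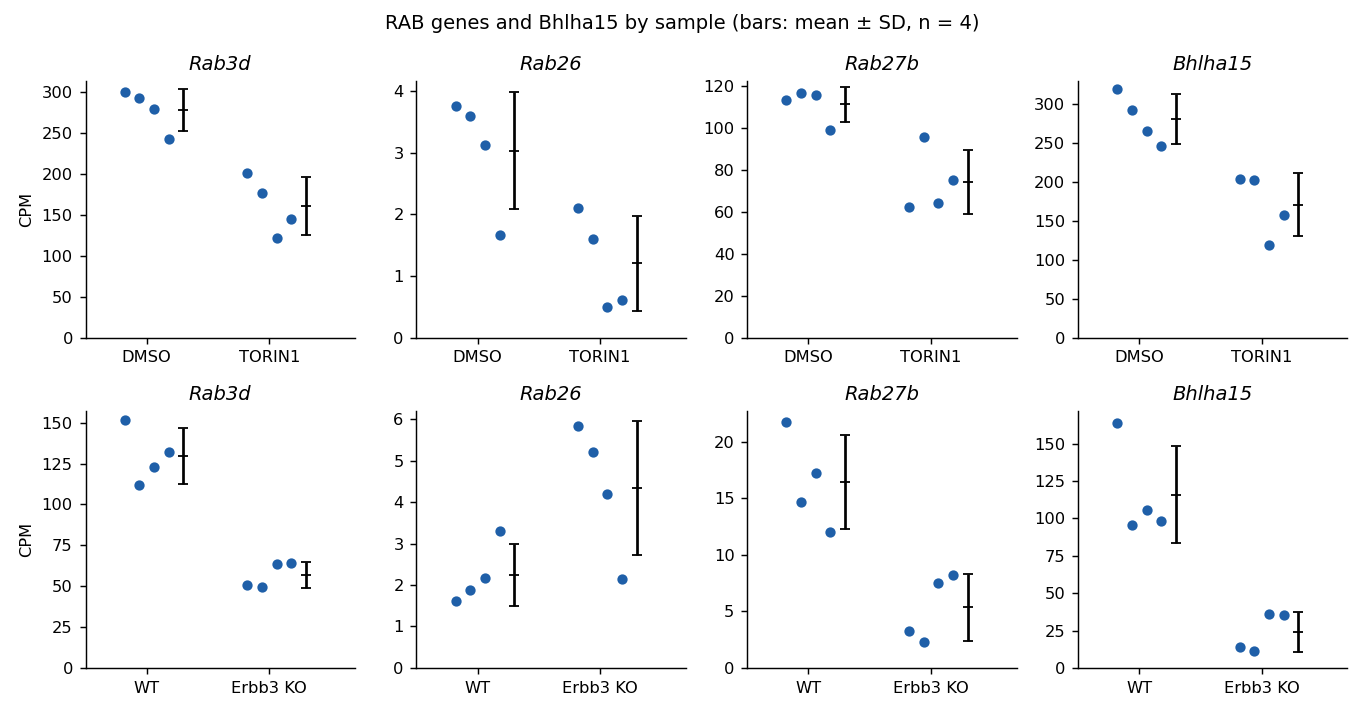
Rab3d, Rab26, Rab27b and Bhlha15 by sample, in CPM, for DMSO and TORIN1 epithelium (upper row) and for WT and Erbb3 KO glands (lower row), with bars for mean ± SD (n = 4 each). Rab3d and Rab27b lie lower with TORIN1 and in KO glands, while Rab26 has means of 3.03 and 1.20 CPM in the upper row and 2.24 and 4.35 CPM in the lower.

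Of 12 tested RAB3 and RAB27 effectors and vesicle motors, 5 fell in the KO glands and none rose. Of all genes 4.2% were called lower and 2.83% higher. That effector list was chosen with results of these data known. The effector median was -0.86 against -0.04 for all genes, and the falls were led by Exph5 (-1.91 ± 0.39) and Mlph (-1.68 ± 0.26). Stxbp6 (-0.86 ± 0.19), Cadps2 (-1.22 ± 0.27) and Syt7 (-0.91 ± 0.21) fell too. The calls over all genes, 1054 with all samples, numbered 5 without KO 1 and 3 without KO 2. The WT glands of this table had lower levels than the E16 glands of the developmental table, with 129.7 ± 16.9 and 279.7 ± 8.75 CPM of Rab3d and 16.4 ± 4.14 and 39.2 ± 2.60 CPM of Rab27b. These tables were normalized apart, so that gap was not tested.

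In E13 epithelium cultured with NRG1, Rab3d, Rab27b and Sytl1 rose from day 2 to day 4. Rab3d had 402 and 432 CPM at day 2, 444 and 492 at day 3 and 592 and 573 at day 4 (day 4 over day 2, 0.48 ± 0.07, adjusted p = 0.00108). Rab27b had 80.0 and 85.2, then 106 and 108, then 129 and 124 CPM (0.62 ± 0.07, adjusted p = 0.000402), and Sytl1 119 and 122, then 155 and 158, then 188 and 192 CPM (0.66 ± 0.06, adjusted p = 0.000184). Days did not overlap for any of these 3 genes. Sytl2 fell from 5.602 and 5.89 to 2.18 and 1.61 CPM (-1.59 ± 0.32, adjusted p = 0.00349). Rab27a (-0.23 ± 0.10, adjusted p = 0.0528) and Vamp8 (0.04 ± 0.08, adjusted p = 0.646) did not pass. Of the 5171 genes tested there, 48.7% were called higher and 43% lower, so a call there is common. Bhlha15 rose by 0.70 ± 0.11 over the same days and Rab4a by 0.86 ± 0.10. Counts in that table are part of each library, so its CPM values are not on the scale of the other tables.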

How the data were processed

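Counts per gene were deposited by the authors in 5 tables, and per the submitters' processing notes reads went through fastp, STAR and featureCounts on mm10. Versions, strand setting and the handling of reads with several matches: not given in the sources used here. Ensembl identifiers in the gland and end bud tables were matched to symbols for 97.8% of genes, and in the TORIN1 table for 99.8%. Entries that a spreadsheet had turned into dates, 8 in the culture table with 0.123% of its counts, were left out.

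Genes were filtered with edgeR's filterByExpr and tested with the robust quasi-likelihood F test of edgeR 4.0.16 (R 4.3.3, limma 3.58.1), with TMM scaling, all groups of a table in 1 fit and Benjamini-Hochberg adjustment over all genes of the table. SE is the size of the log2 fold change over the root of F. Alternatives were DESeq2 1.42.0 and its size factors, plain CPM, no filter, the compared groups alone, the replicate letter or number as a block, leaving out each sample, and scaling to epithelial markers. The fits were tested on simulated data. No sample pair of a group agreed within sampling noise (lowest chi-square per gene 3.27).

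The members and all gene lists were chosen with earlier results of these data known. All 10 members are named throughout, as are the 2 genes of each wider list with the largest called change in each direction, and the 2 genes most like each member were ranked, of which 1 or 2 are given. Protein sequences were not used here.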

Additional observations from a re-analysis of the deposited data

Results flagged for a closer look

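Of 100 groups of 4 or more samples, 1 for each gene and group, 11 held a sample apart from the others by Dixon's test at 95%, and chance gives about 5. In E18 D, Vamp8 (711 CPM, with 168 to 208 in E18 A, B and C), Stxbp2 (179.8 against 115 to 122), Sytl1 (127 against 90.3 to 91.8) and Rab26 (20.9 against 13.6 to 14.8) were apart and high. In TORIN1 A, Vamp8 (298.7 CPM against 116 to 144) and Stxbp2 (189 against 131 to 137) were apart and high. Sytl1 was high in E15 C (30.9 CPM against 12.98 to 15.6). Stx3 was high in E13 B (14.7 CPM against 10.3 to 10.9). Rab27a was high in KO 1 (22.8 CPM against 18.96 to 19.3). Rab27b was low in E14 B (4.17 CPM against 6.04 to 6.23), and Rab3d was low in E17 A (391 CPM against 406 to 408).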

How the results depend on the processing

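Counts of called members changed by more than 1.5 times in few settings besides leaving out a sample. From E17 to E18 the count was 1 with plain CPM, without the filter, with the replicate block and with only the compared groups, and from E16 to E17 it was 6 with only the compared groups. For the difference in NRG1 effect it was 1 without the filter and 1 with DESeq2. For TORIN1 it was 1 with plain CPM and 4 with DESeq2, and for KO it was 4 with epithelial scaling. Between E13 and E18 that scaling turned Rab27a (-0.54), Vamp2 (-0.95) and Stx3 (-0.44) to lower. Leaving out each sample gave counts of 10 to 10 for E18 against E13 and over all stages, 4 to 5, 6 to 8, 7 to 7, 2 to 3 and 1 to 3 for the daily steps, 3 to 4 for E13 and 2 to 4 for E14 end buds, 0 to 3 for their difference, 0 to 5 for TORIN1, 0 to 3 for KO and 4 to 4 for culture. The cause of these shifts was not tested, and shares of all genes in these settings are not set beside the counts. Of single members under alternatives, 1761 values kept their side of the threshold with no reversal of a called one, 54 lost the call, 36 gained it and 3 called values reversed. Changes of sign in members that were not called count as kept, and the test over all stages has no direction.

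Replicate letters or numbers were shared across groups, and no table met the bar for pairing, a correlation of deviations over 0.1 in every pair. It was found in 8 of 60 pairs of the gland table, 2 of 15 in end buds, 3 of 4 in the TORIN1 table (median 0.31, lowest -0.12) and 0 of 4 in the KO table. With the replicate block Sytl1 was not called from E17 to E18 (0.57, adjusted p = 0.0573) or in E13 end buds (-0.93, adjusted p = 0.0659), Rab26 was called with TORIN1 (-1.43, adjusted p = 0.0407), and no other call on a member changed. No paired analysis was possible for culture because the digit its columns share across days is not stated to be the replicate number. Low counts limit Rab26 in early glands and Sytl2 in all tables.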
